A study of Homo sapiens with 38 samples.

Results

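The step analysed here is the interval from day 4 to day 6 of differentiation in unsupplemented N2B27 medium, in the human embryonic stem cell line Shef6. Its members are 4 of the 38 libraries of the series, chosen by their labels alone: 2 libraries of N2B27 at day 6 and 2 libraries of N2B27 at day 4 from the first experiment (Ex1). Before differentiation all of these cells were naive, adapted to a serum coating, and grown in PXGL. This medium holds inhibitors of MEK, tankyrase and PKC together with LIF. They were seeded on Geltrex, a basement membrane extract, straight into N2B27 with a ROCK inhibitor for the first day, and then kept in N2B27. This is a basal medium with N2 and B27 supplements and no added growth factor. Apart from the ROCK inhibitor at seeding, no group used here carries a genetic change or an added agent other than its medium. The day 4 libraries of a second experiment (Ex2), the other N2B27 days and the day 4 and day 6 libraries in the commercial media E8 and mTeSR served for comparison. Each group had 2 libraries prepared side by side in 1 experiment on 1 cell line. The p-values below therefore measure the spread between such libraries, which may be technical.

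Naive pluripotent cells resemble the epiblast before implantation. On withdrawal of the inhibitors they switch off naive transcription factors such as KLF4 and KLF17 and move towards a formative and then a primed state. That state is held by FGF and Activin/Nodal signalling. Cells in it can respond to Nodal, WNT and BMP with the genes of the primitive streak, among them TBXT, MIXL1 and EOMES, from which mesoderm and definitive endoderm arise. Lefty proteins and Cerberus (CER1) are secreted inhibitors that Nodal signalling itself induces.

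RNA was measured by QuantSeq, which reads a tag near the 3′ end of each polyadenylated transcript. The 4 libraries held 4659588 to 5612354 counts each (3038046 to 5612354 over all 38), with 24453 to 24759 genes detected. Between 2.36% and 2.68% of counts came from mitochondrial genes and 7.94% to 9.36% from ribosomal protein genes. A level of 3 counts, taken as the floor for a level, came to 0.520 to 0.625 CPM (counts scaled to library size with TMM factors) in these libraries. The replicates correlated with r = 0.986 at day 4 and 0.981 at day 6 over the 16674 genes tested, against 0.964 to 0.970 between days. The defining markers of pluripotent cells were present in every library. POU5F1 stood at 412.2 and 465.3 CPM at day 4 and 355.7 and 378.2 CPM at day 6, SOX2 at 237.5 and 229.0 CPM at day 4 and 210.3 and 221.8 CPM at day 6. NANOG was at 1124 and 1138 CPM at day 4 and 1007 and 969.4 CPM at day 6.

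Between days 4 and 6, 7 of 15 genes of the primitive streak, 8 of 18 of endoderm and hypoblast and 9 of 26 ERBB, Eph and guidance genes rose, as did the ligand BMP2 and several collagens. The naive factors KLF4 and KLF17 fell, and no general pluripotency factor was called. The gene lists were drawn up with earlier results of these data known, so their counts are descriptions and no test. With edgeR quasi-likelihood tests, 648 of 16674 genes (3.89%) passed a Benjamini-Hochberg adjusted p-value under 0.05 with an absolute log2 fold change above 1. Of these, 513 (3.08% of the genes tested) rose and 135 (0.81%) fell. By 4-fold or more, 126 genes rose and 23 fell. The 648 calls became 415 with DESeq2, and were fewer with any 1 of the 4 libraries left out. The libraries of the 2 days did not overlap in any of the 648, a property shared, at any size of change, by 32.2% of all genes tested with day 6 above day 4 and 26.9% with day 6 below. The changes were of moderate size, with a median log2 fold change of 1.45 in the genes that rose and -1.29 in those that fell, against 0.03 over all genes tested. Most were of low or middle abundance. The median level of the rising genes at day 6 was 9.85 CPM, and 136 rising and 34 falling genes averaged 20 CPM or more in 1 of the days. Protein-coding genes made up 84.4% of the rising and 68.1% of the falling genes, against 77.4% of all genes tested. Of the same sets 8.19%, 18.5% and 12.8% had no class, since their symbols are not in GENCODE 44. In bulk RNA, fewer cells of a type and less RNA per cell cannot be told apart, which holds for every level given here.

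**Figure D1:**
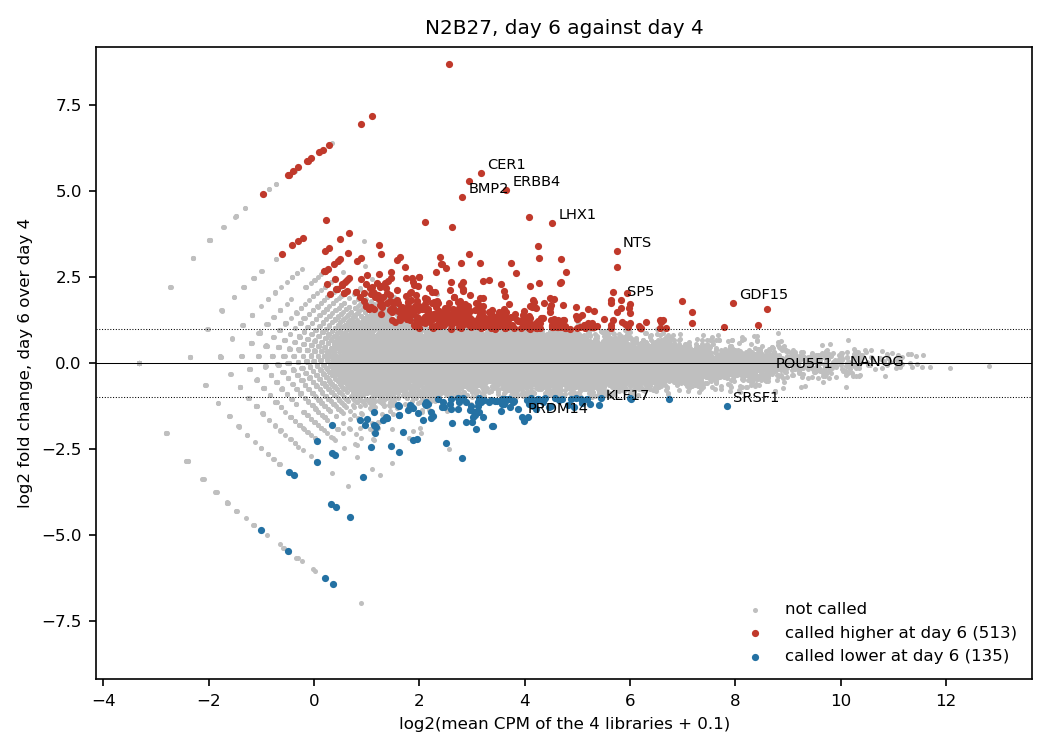
Each point is 1 of the 16674 genes tested, placed by its mean level over the 4 libraries (log2 of CPM + 0.1) and its fitted log2 fold change, day 6 over day 4, in N2B27. The 513 called rises (red) outnumber the 135 called falls (blue), POU5F1 and NANOG lie near 0 at high level, and the curved rows at low level are genes with a few counts, whose fitted fold changes depend on the prior count.

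The genes named first are the 15 with the largest rise and the 12 with the largest fall in a set of called genes. This set averaged 20 CPM or more in 1 of the days and had no overlap between the libraries of the days. The choice fixes their direction, size and lack of overlap. ERBB4, a receptor tyrosine kinase for neuregulins (chromosome 2, 211375717 to 212538841), had 1.04 and 0.358 CPM at day 4 and 26.9 and 21.4 CPM at day 6, a fold of 33.0. Its log2 fold change was 5.04 ± 0.42 (± gives the standard error throughout), with an adjusted p of 7.9e-10. Both day 6 libraries lay far above both day 4 libraries, which were near the floor. P3H2, a prolyl 3-hydroxylase that modifies collagen (chromosome 3, 189956728 to 190122437), stood at 2.08 and 1.25 CPM at day 4 and 33.3 and 30.8 CPM at day 6 (log2 fold change 4.24 ± 0.30, adjusted p = 1.9e-11). LHX1, a LIM homeobox factor of the primitive streak and its derivatives (chromosome 17, 36936785 to 36944612), had 2.43 and 2.69 CPM at day 4 and 41.3 and 45.3 CPM at day 6 (log2 fold change 4.07 ± 0.37, adjusted p = 2.6e-09). RHOBTB3, an atypical protein related to small GTPases (chromosome 5, 95713522 to 95824383), was measured at 3.29 and 3.23 CPM at day 4 and 32.7 and 36.5 CPM at day 6 (log2 fold change 3.40 ± 0.26, adjusted p = 6.8e-11). In P3H2, LHX1 and RHOBTB3 too, both day 6 libraries lay far above both day 4 libraries.

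NTS, which encodes the peptide neurotensin (chromosome 12, 85874295 to 85882992), had 10.4 and 9.68 CPM at day 4 and 97.9 and 96.1 CPM at day 6 (log2 fold change 3.27 ± 0.18, adjusted p = 1.4e-13). EOMES, a T-box factor of the streak and early endoderm (chromosome 3, 27715949 to 27722711), had 4.85 and 3.40 CPM at day 4 and 30.4 and 38.3 CPM at day 6 (log2 fold change 3.05 ± 0.30, adjusted p = 1.2e-08). CDH2, the gene of N-cadherin, which replaces E-cadherin in cells that leave an epithelium (chromosome 18, 27932879 to 28177946), had 6.76 and 4.48 CPM at day 4 and 43.6 and 48.0 CPM at day 6 (log2 fold change 3.02 ± 0.20, adjusted p = 4.8e-12). Each of these was about 8 to 10 times higher at day 6, with replicates far closer to each other than the days were. CDH2 was higher at day 4 in Ex2, and its log2 fold change against those libraries was 1.78. CYP26A1, the enzyme that degrades retinoic acid (chromosome 10, 93073475 to 93077885), went from 6.07 and 6.63 CPM at day 4 to 36.3 and 27.8 CPM at day 6 (log2 fold change 2.33 ± 0.25, adjusted p = 1.2e-07). Further rises were those of RND3, a small GTP-binding protein that loosens actin fibres (log2 fold change 2.35 ± 0.27, adjusted p = 2.4e-07), and ADAM19, a membrane metalloprotease (log2 fold change 2.34 ± 0.22, adjusted p = 6.1e-09). DTNA, the dystrophin-associated dystrobrevin alpha, rose by 2.23 on the log2 scale, and ZC3H6, a zinc finger gene, by 2.91. MIR205HG, the host transcript of miR-205, had 6.76 and 8.42 CPM at day 4 and 44.6 and 50.6 CPM at day 6 (log2 fold change 2.65 ± 0.20, adjusted p = 5.0e-11), and the clone-named AL591742.2 12.7 and 14.2 CPM at day 4 and 89.0 and 98.3 CPM at day 6 (log2 fold change 2.80 ± 0.22, adjusted p = 8.5e-11). The clone-named AC068313.1 stood apart from these, since it had 3.12 and 4.84 CPM at day 4 but 5.84 and 42.7 CPM at day 6, so that 1 library carried the rise (log2 fold change 2.61 ± 0.86, adjusted p = 0.042). Without day 6 replicate 2 its log2 fold change was 0.55 with an adjusted p of 0.86. The calls of the other 14 genes held when each of the 4 libraries was left out in turn.

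The 12 falls were smaller, between 2.31 and 3.20 fold. SRSF1, a splicing factor that every cell uses (chromosome 17, 58000919 to 58007346), had 313.2 and 334.3 CPM at day 4 and 155.0 and 116.7 CPM at day 6 (log2 fold change -1.25 ± 0.12, adjusted p = 5.6e-09). KLF4, a naive factor and reprogramming gene (chromosome 9, 107484852 to 107490482), had 26.0 and 27.4 CPM at day 4 and 8.75 and 12.1 CPM at day 6 (log2 fold change -1.35 ± 0.21, adjusted p = 3.1e-05). KLF17, a naive-specific factor (chromosome 1, 44118821 to 44135140), had 61.0 and 57.7 CPM at day 4 and 28.8 and 22.6 CPM at day 6 (log2 fold change -1.21 ± 0.27, adjusted p = 0.0021). In all 3 the lower day 4 library was above the higher day 6 library, as the choice of these genes required. PRDM14, a repressor that acts in pluripotent and germ cells, had 23.8 and 22.0 CPM at day 4 and 7.29 and 8.06 CPM at day 6 (log2 fold change -1.57 ± 0.25, adjusted p = 5.5e-05). METTL7A, a methyltransferase-like membrane protein, went from 44.4 and 42.5 CPM at day 4 to 20.01 and 15.9 CPM at day 6 (log2 fold change -1.27 ± 0.17, adjusted p = 5.5e-06). MAGEB2, a cancer-testis gene on the X chromosome, went from 34.8 and 28.5 CPM at day 4 to 11.3 and 15.1 CPM at day 6 (log2 fold change -1.26 ± 0.18, adjusted p = 1.0e-05). The rest of the 12 are given as log2 fold changes. They were the organic anion transporter SLCO4C1 (-1.35), the GTPase-activating protein ARHGAP18 (-1.22), the complex I subunit NDUFB7 (-1.29). The others were the mitochondrial tRNA gene MT-TN (-1.57), the metallothionein pseudogene MT1JP (-1.68) and the clone-named AL117378.1 (-1.24). MT1JP resembles other metallothionein genes, with which it may share reads, and its value is uncertain for that reason. Without day 6 replicate 2, NDUFB7 and KLF17 missed the threshold, with adjusted p-values of 0.085 and 0.066.

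Promoter sequence was available for 14 of these 27 genes (RefSeq, GRCh38.p14). Those of ERBB4, NTS and KLF17 are shown. They are the promoter of the largest rise among the 27, of a rise that was called in each of the 3 media compared further on, and of a naive factor that fell. They run up to 250 bases before the RefSeq start and stop where the GENCODE gene begins. ERBB4 is at chr2:212538842-212539052 on the minus strand, NTS at chr12:85874045-85874294 and KLF17 at chr1:44118571-44118820, both on the plus strand. Capitals mark matches, on either strand, to the SP/KLF core GGGCGG or to the SOX core ACAAAGG.
ERBB4: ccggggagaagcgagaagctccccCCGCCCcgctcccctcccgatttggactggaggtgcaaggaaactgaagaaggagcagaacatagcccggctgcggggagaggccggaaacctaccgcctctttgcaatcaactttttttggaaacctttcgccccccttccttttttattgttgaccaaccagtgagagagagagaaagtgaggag
NTS: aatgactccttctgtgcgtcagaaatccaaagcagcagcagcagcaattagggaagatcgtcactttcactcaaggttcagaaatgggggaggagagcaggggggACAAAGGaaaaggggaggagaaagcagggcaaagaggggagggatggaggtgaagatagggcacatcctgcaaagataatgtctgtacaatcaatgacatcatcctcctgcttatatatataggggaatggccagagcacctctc
KLF17: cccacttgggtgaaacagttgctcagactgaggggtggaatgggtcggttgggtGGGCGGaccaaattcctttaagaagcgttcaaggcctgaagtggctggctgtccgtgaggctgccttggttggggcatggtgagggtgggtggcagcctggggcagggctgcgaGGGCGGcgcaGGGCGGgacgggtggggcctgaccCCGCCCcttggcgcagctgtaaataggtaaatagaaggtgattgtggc
The ERBB4 window has 1 SP/KLF match, 226 bases before the RefSeq start, and the NTS window 1 SOX match 145 bases before it. The KLF17 window has 4 SP/KLF matches 196, 82, 72 and 48 bases before it. Over all 7700 tested genes with 1 promoter entry, 72.5% held the SP/KLF core, against 64.0% of 250 rising and 62.8% of 51 falling genes. The SOX core was in 3.79% of all, 6.80% of rising and 1.96% of falling genes, and the letters TATAAA in 5.74%, 10.4% and 7.84%. These were picked from a longer set of motifs searched, in which others differed too. The letters TGACGTCA (CRE) were in 3.58%, 1.2% and 0%, and GGAATGT (TEAD) in 1.87%, 1.6% and 5.88%. These shares are descriptions of letters in the windows and were not tested.

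For every list below, 3.08% of all genes tested rose and 0.81% fell, with a median log2 fold change of 0.03. The general pluripotency list had no call among 10 genes, with a median log2 fold change of -0.15. LIN28A and DPPA4, both abundant in pluripotent cells, were not called. LIN28A was at 457.8 and 513.1 CPM at day 4 and 558.5 and 532.8 CPM at day 6, and DPPA4 at 653.4 and 644.1 CPM at day 4 and 697.9 and 670.0 CPM at day 6. Of this list ZFP42 alone had an adjusted p under 0.05, with 160.5 and 150.9 CPM at day 4 and 120.2 and 117.1 CPM at day 6 (log2 fold change -0.39 ± 0.10, adjusted p = 0.0070), which is under the fold threshold. Among 20 naive markers 3 fell and none rose, with a median of -0.42 (-0.39 without 1 member that had 0 counts on 1 of the days). They were KLF4 and KLF17, given above, and ARGFX, a homeobox gene of the early embryo, which had 1.56 and 1.61 CPM at day 4 and 0.417 and 0.202 CPM at day 6 (log2 fold change -2.27 ± 0.68, adjusted p = 0.026). The call of ARGFX was lost without each single library, with an adjusted p of up to 0.23 without day 6 replicate 2. The naive surface marker SUSD2 had 104.3 and 119.9 CPM at day 4 and 64.2 and 75.6 CPM at day 6 (log2 fold change -0.68 ± 0.16, adjusted p = 0.0031). DPPA3, a maternal and naive gene, had 355.7 and 361.9 CPM at day 4 and 292.8 and 255.5 CPM at day 6 (log2 fold change -0.39 ± 0.12, adjusted p = 0.023). The FGF ligand FGF4 had 156.9 and 151.4 CPM at day 4 and 95.7 and 82.6 CPM at day 6 (log2 fold change -0.79 ± 0.15, adjusted p = 5.6e-04). All 3 were lower at day 6 beyond the spread but by less than 2-fold. TFCP2L1, at 111.8 and 108.0 CPM at day 4 and 94.8 and 109.4 CPM at day 6, overlapped between the days, and KLF5, at 83.0 and 87.8 CPM at day 4 and 82.7 and 70.9 CPM at day 6, nearly touched. TBX3, at 38.1 and 34.8 CPM at day 4 and 59.0 and 54.4 CPM at day 6 (log2 fold change 0.64 ± 0.17, adjusted p = 0.010), was higher at day 6. So was ALPG, at 67.1 and 76.3 CPM at day 4 and 103.6 and 123.5 CPM at day 6 (log2 fold change 0.66 ± 0.15, adjusted p = 0.0031).

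Of 21 primed or formative markers 4 rose and 1 fell, with a median of 0.24. OTX2, a homeobox factor of the formative epiblast, had 7.97 and 7.17 CPM at day 4 and 19.2 and 16.9 CPM at day 6 (log2 fold change 1.25 ± 0.21, adjusted p = 1.4e-04). VIM, which encodes the intermediate filament vimentin, had 9.53 and 10.8 CPM at day 4 and 42.3 and 31.6 CPM at day 6 (log2 fold change 1.86 ± 0.25, adjusted p = 4.7e-06), but had no call against the day 4 libraries of Ex2 (log2 fold change 0.79). ZIC2 was at 65.0 and 71.3 CPM at day 4 and 147.1 and 129.4 CPM at day 6 (log2 fold change 1.02 ± 0.14, adjusted p = 5.6e-06), close to the fold threshold. Without day 4 replicate 1 or day 6 replicate 1 its log2 fold change was under 1 (0.96 without day 4 replicate 1). The 4 rises, with CDH2, are genes of early epiblast, neural and mesenchymal cells. HESX1, a homeobox gene of the anterior epiblast, fell from 10.1 and 8.78 CPM at day 4 to 2.501 and 3.02 CPM at day 6 (log2 fold change -1.76 ± 0.44, adjusted p = 0.0063). Its call was lost in 3 of the 4 fits with 1 library left out (adjusted p up to 0.062 without day 6 replicate 1). SOX11, SOX3 and THY1 had log2 fold changes of 0.24, -0.22 and 0.12 and no call. Of 8 DNA methylation enzymes none was called, although the median was -0.57 and 7 of the 8 were lower. DNMT3B, the de novo methyltransferase of the epiblast, had 1348 and 1370 CPM at day 4 and 865.0 and 809.2 CPM at day 6 (log2 fold change -0.70 ± 0.10, adjusted p = 1.4e-05). UHRF1, which guides maintenance methylation, had 60.3 and 66.8 CPM at day 4 and 32.1 and 33.1 CPM at day 6 (log2 fold change -0.96 ± 0.14, adjusted p = 1.1e-05).

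Of 15 primitive streak genes tested 7 rose and none fell, with a median of 1.23. Of all genes tested 3.08% rose, a share that makes no test of a list drawn up with earlier results known. TBXT, the T-box factor brachyury, had 27.4 and 25.6 CPM at day 4 and 67.5 and 60.9 CPM at day 6 (log2 fold change 1.27 ± 0.20, adjusted p = 6.2e-05). MIXL1, a homeobox factor of mesendoderm, had 28.4 and 31.2 CPM at day 4 and 91.9 and 105.4 CPM at day 6 (log2 fold change 1.73 ± 0.19, adjusted p = 1.0e-07). SP5, a WNT-induced zinc finger factor, had 24.1 and 25.6 CPM at day 4 and 88.8 and 87.1 CPM at day 6 (log2 fold change 1.82 ± 0.23, adjusted p = 1.1e-06). In all 3 genes the days were well apart. APLNR, a receptor of mesodermal progenitors, had 1.91 and 2.51 CPM at day 4 and 8.96 and 10.3 CPM at day 6 (log2 fold change 2.11 ± 0.40, adjusted p = 5.2e-04). FST, the activin antagonist follistatin, had 10.4 and 7.35 CPM at day 4 and 21.3 and 20.6 CPM at day 6 (log2 fold change 1.23 ± 0.24, adjusted p = 6.9e-04), with no call against the day 4 libraries of Ex2 (log2 fold change 0.89). With LHX1 and EOMES these make the 7. NODAL, which maintains the streak programme, was among the 8 others, at 168.1 and 180.8 CPM at day 4 and 140.5 and 147.1 CPM at day 6 (log2 fold change -0.28 ± 0.16, adjusted p = 0.27). So were WNT3 and SNAI1, with log2 fold changes of 0.05 and 0.25. GSC, a homeobox gene of the organizer, had 2.08 and 3.05 CPM at day 4 and 4.38 and 8.46 CPM at day 6 (log2 fold change 1.32 ± 0.49, adjusted p = 0.075).

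Of 18 endoderm and hypoblast genes 8 rose and none fell, with a median of 1.30, and all 18 had a positive log2 fold change. Over all genes tested 3.08% rose and the median was 0.03. Several of them started from the floor, so that for them a ratio of counts with its exact 95% counting interval is given in place of a fitted fold. CER1 had 4 counts over both day 4 libraries and 170 over both at day 6, a ratio of 49.4 (18.95 to 183.5). SOX17, a factor of definitive endoderm, hypoblast and germ cells, had 4 and 145 counts, a ratio of 42.2 (16.1 to 156.8). FOXA2, a pioneer factor of endoderm, had 5 and 78 counts, a ratio of 18.1 (7.45 to 57.4). At day 6 their levels were 17.3 and 17.5 CPM for CER1, 13.8 and 15.9 CPM for SOX17 and 7.71 and 8.26 CPM for FOXA2, with the replicates of each within 1.2 times of each other. GATA6, the GATA factor of hypoblast and endoderm, had 0.867 and 0.538 CPM at day 4 and 10.8 and 11.9 CPM at day 6 (log2 fold change 3.96 ± 0.38, adjusted p = 1.3e-08). COL4A2, a basement membrane collagen chain, had 24.6 and 28.1 CPM at day 4 and 56.7 and 55.8 CPM at day 6 (log2 fold change 1.09 ± 0.16, adjusted p = 2.1e-05). CXCR4, a chemokine receptor of definitive endoderm, had 11.1 and 12.4 CPM at day 4 and 28.6 and 37.1 CPM at day 6 (log2 fold change 1.48 ± 0.21, adjusted p = 8.7e-06). The day 4 libraries of Ex2 were as high in CXCR4 as day 6, at 30.7 and 35.4 CPM, and the rise was absent against them (log2 fold change -0.01, adjusted p = 0.97). The others called were OTX2 and PDGFRA, the latter at 1.39 and 1.25 CPM at day 4 and 4.17 and 3.63 CPM at day 6 (log2 fold change 1.54 ± 0.45, adjusted p = 0.021). Its call was lost without any 1 of the 4 libraries (adjusted p up to 0.13 without day 4 replicate 2) and against Ex2 (0.11). Without day 4 replicate 1 the log2 fold change of COL4A2 was just under 1. GATA4 (0.91), HNF4A (1.19) and HHEX (1.25) were positive without a call, and the apolipoproteins APOA1 and APOA2 were at or near the floor in all 4 libraries.

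In the mesoderm list 4 of 15 rose and none fell, PDGFRA among them. HAND1, a bHLH factor of lateral mesoderm and amnion, had 1.21 and 1.08 CPM at day 4 and 2.29 and 5.44 CPM at day 6 (log2 fold change 1.74 ± 0.59, adjusted p = 0.049). PDGFRB had 1.73 and 2.15 CPM at day 4 and 5.42 and 5.04 CPM at day 6 (log2 fold change 1.42 ± 0.44, adjusted p = 0.031). HAND1 lost its call against Ex2 (0.38) and in 3 of the 4 fits with 1 library left out (adjusted p up to 0.55 without day 6 replicate 2), and PDGFRB in all 4 (up to 0.20 without day 4 replicate 1). The muscle gene TNNT2 (-0.90) and TWIST1 (0.07) had no call. Of the lists for other lineages, the neural list had 3 rises and 2 falls among 16 genes, with a median of -0.03. Besides NTS the rises were IRX3, at 2.25 and 1.43 CPM at day 4 and 6.25 and 7.25 CPM at day 6 (log2 fold change 1.85 ± 0.39, adjusted p = 0.0014), and IRX1, at 4.68 and 3.05 CPM at day 4 and 9.38 and 10.5 CPM at day 6 (log2 fold change 1.35 ± 0.30, adjusted p = 0.0026). The call of IRX1 was lost without day 4 replicate 2 (adjusted p = 0.079) and against Ex2 (0.96). PAX6, the paired box factor of early neurectoderm, fell from 6.41 and 6.09 CPM at day 4 to 1.88 and 2.02 CPM at day 6 (log2 fold change -1.67 ± 0.39, adjusted p = 0.0040), with HESX1. SOX2 and NES, which neural and pluripotent cells share, were not called. In the trophectoderm list 1 of 13 rose, the peptidase ENPEP (log2 fold change 1.08 ± 0.24, adjusted p = 0.0027; adjusted p up to 0.083 without day 4 replicate 2). The list had 5 calls with the day 4 libraries of Ex2 and 0 without day 4 replicate 2. The trophectoderm factor GATA3 was at 24.4 and 23.8 CPM at day 4 and 18.1 and 18.1 CPM at day 6 and CDX2 at 0.867 and 0.717 CPM at day 4 and 3.75 and 1.41 CPM at day 6. In the amnion list of 11 (median 1.16), MSX2 (log2 fold change 1.52 ± 0.28, adjusted p = 3.3e-04) and HAND1 rose and ISL1 and GABRP were not called. IGFBP3 fell (log2 fold change -1.19 ± 0.37, adjusted p = 0.032), a call lost without each single library (adjusted p up to 0.25 without day 6 replicate 2). In the germ cell list of 8, SOX17 rose and PRDM14 fell, while TFAP2C, at 381.7 and 375.7 CPM at day 4 and 338.2 and 347.8 CPM at day 6, and the germ cell marker DAZL, near the floor, were not called.

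**Figure D2:**
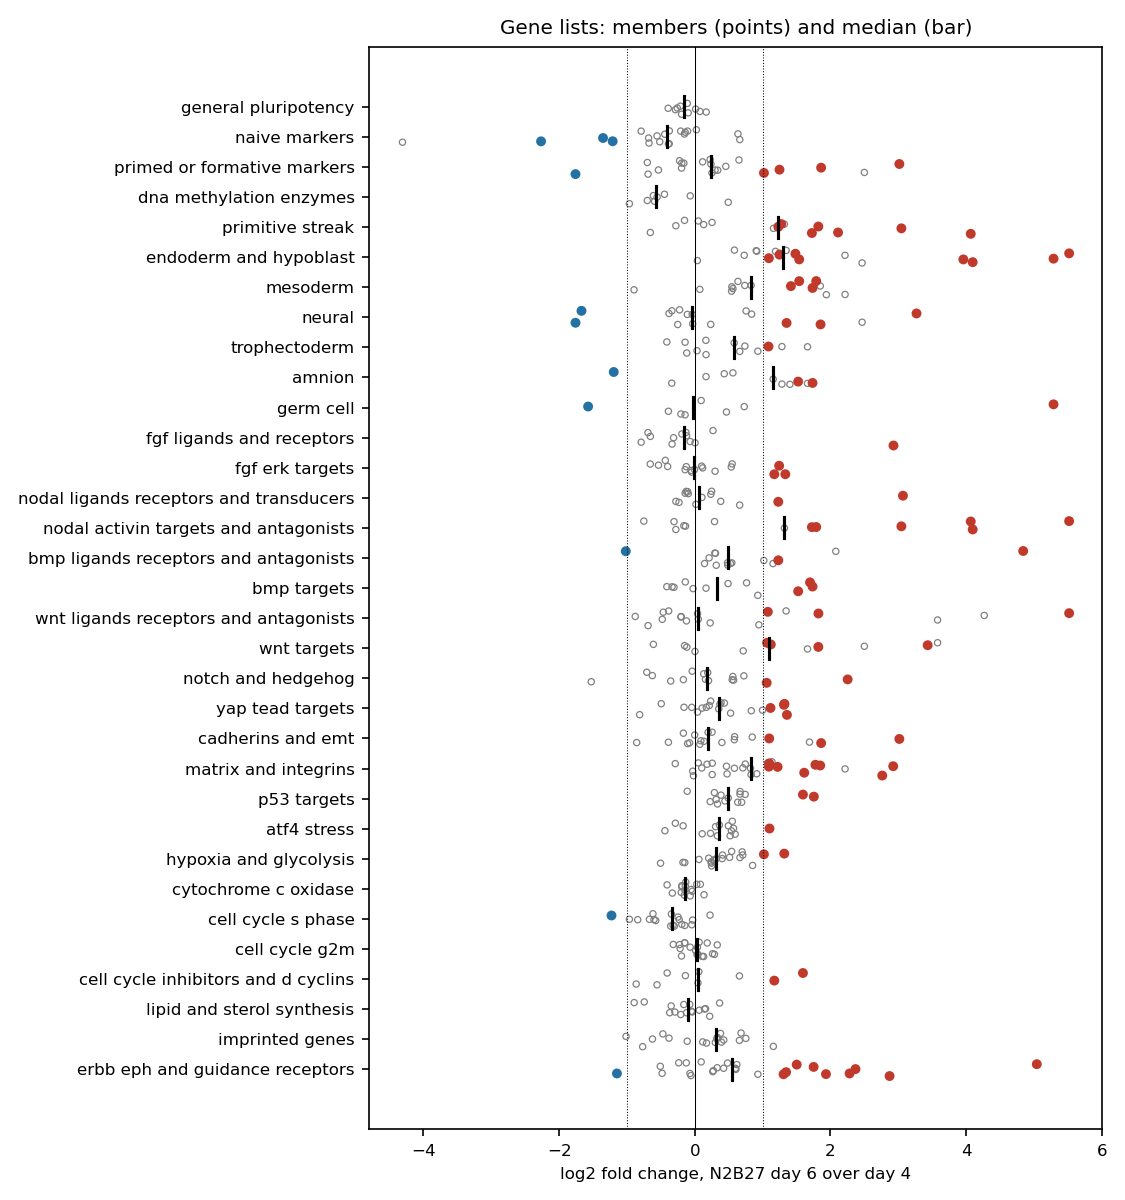
Each row is a gene list and each point 1 tested member, placed by its log2 fold change, N2B27 day 6 over day 4 (red, called higher; blue, called lower; open, not called; the black bar is the list median and the vertical spread within a row has no meaning). The medians of the primitive streak (1.23), endoderm and hypoblast (1.30), Nodal target (1.32), amnion (1.16) and WNT target (1.09) lists lie above 1. Those of the general pluripotency and naive lists lie below 0.

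Of 14 ligands, receptors and transducers of the Nodal pathway 2 rose, FST and CFC1, a co-receptor of the Cripto family, which had 0 and 0.717 CPM at day 4 and 2.71 and 3.63 CPM at day 6. These were 4 and 31 counts over both libraries of each day, a ratio of 9.01 (3.19 to 35.1), with an adjusted p of 0.043. The call of CFC1 was lost in 3 of the 4 fits with 1 library left out (adjusted p up to 0.31 without day 4 replicate 1). The ligand GDF3, at 376.3 and 392.7 CPM at day 4 and 342.6 and 354.6 CPM at day 6, and the co-receptor TDGF1, at 249.2 and 227.7 CPM at day 4 and 217.1 and 188.8 CPM at day 6, were not called. Nor were the transducers SMAD2 (0.24), SMAD3 (-0.10) and FOXH1 (0.25). Of 13 target genes and feedback inhibitors 6 rose and none fell, with a median of 1.32. Of the 6, CER1, EOMES, MIXL1, LHX1 and FOXA2 are also members of the streak or endoderm list and were counted there. The Lefty inhibitors were not called. LEFTY2 had 52.5 and 59.3 CPM at day 4 and 34.0 and 32.4 CPM at day 6 (log2 fold change -0.75 ± 0.23, adjusted p = 0.031). LEFTY1 had 131.4 and 128.8 CPM at day 4 and 123.8 and 113.0 CPM at day 6 (log2 fold change -0.14 ± 0.17, adjusted p = 0.67). The pair are near-identical in sequence and may share reads, so that their separate values are uncertain.

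Among 15 BMP ligands, receptors and antagonists BMP2 and FST rose and ACVR1 fell. BMP2 had 5 counts over both day 4 libraries and 131 over both at day 6, a count ratio of 30.5 (12.7 to 95.4) and a day 6 level of 11.7 and 15.1 CPM. BMP4 was at 55.6 and 53.03 CPM at day 4 and 77.7 and 81.0 CPM at day 6 (log2 fold change 0.55 ± 0.14, adjusted p = 0.0067), under the fold threshold. ACVR1, a type I receptor, had 9.36 and 13.98 CPM at day 4 and 6.88 and 4.63 CPM at day 6 (log2 fold change -1.02 ± 0.29, adjusted p = 0.018). This call was lost without day 4 replicate 2 and without day 6 replicate 2 (adjusted p = 0.26 without day 6 replicate 2), and against Ex2 (-0.45). Of 12 BMP target genes 3 rose, ID2, MSX2 and HAND1. ID2, an inhibitor of bHLH factors, had 13.2 and 11.7 CPM at day 4 and 41.7 and 39.1 CPM at day 6 (log2 fold change 1.70 ± 0.19, adjusted p = 1.4e-07). MSX2, a homeobox gene, had 3.99 and 2.87 CPM at day 4 and 8.75 and 11.1 CPM at day 6. ID3 was at 54.3 and 68.4 CPM at day 4 and 106.9 and 101.4 CPM at day 6 (log2 fold change 0.76 ± 0.15, adjusted p = 5.5e-04), under the fold threshold. ID1 was at 102.3 and 114.5 CPM at day 4 and 91.3 and 80.6 CPM at day 6 (log2 fold change -0.33 ± 0.13, adjusted p = 0.089).

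Of 18 WNT ligands, receptors and antagonists 3 rose, CER1, WNT5A and SFRP1. The non-canonical ligand WNT5A had 8.32 and 7.35 CPM at day 4 and 30.8 and 24.8 CPM at day 6 (log2 fold change 1.82 ± 0.30, adjusted p = 8.9e-05). The antagonist SFRP1 had 7.28 and 8.24 CPM at day 4 and 17.1 and 15.7 CPM at day 6 (log2 fold change 1.08 ± 0.20, adjusted p = 3.8e-04), and its log2 fold change was 0.99 without day 4 replicate 1. RSPO3 and DKK1 had 0 counts in both day 4 libraries and no more than 3 in a day 6 library, and are given no fold (list median 0.05, and -0.04 without them). In the WNT target list 4 of 12 rose, but besides SP5 their levels were low. The list median was 1.09, and 1.07 without 1 member that had 0 counts on 1 of the days. NKD1 and RNF43, which restrain the pathway, had day 6 levels of 4.17 and 5.84 CPM and 4.38 and 5.64 CPM. LGR5, a receptor for R-spondins, had 1 count at day 4 and 12 at day 6, a ratio of 13.95 (2.07 to 596.5). The calls of these 3 were lost in 3 (NKD1, LGR5) or 4 (RNF43) of the 4 fits with 1 library left out, with adjusted p-values of up to 0.35, 0.41 and 0.32, and that of NKD1 also against Ex2 (0.74). AXIN2, the general WNT feedback gene, was at 42.8 and 41.6 CPM at day 4 and 45.0 and 32.8 CPM at day 6 (log2 fold change -0.12 ± 0.19, adjusted p = 0.76).

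Of 12 FGF ligands and receptors 1 rose. FLRT3, a membrane partner of FGF receptors, had 1.91 and 1.25 CPM at day 4 and 10.0 and 14.3 CPM at day 6 (log2 fold change 2.92 ± 0.35, adjusted p = 6.5e-07). FGFR3 had 92.2 and 91.0 CPM at day 4 and 59.6 and 54.0 CPM at day 6 (log2 fold change -0.69 ± 0.12, adjusted p = 2.5e-04). The ligand FGF2 had 297.6 and 281.3 CPM at day 4 and 258.6 and 248.8 CPM at day 6 (log2 fold change -0.19 ± 0.09, adjusted p = 0.18). Of 17 targets of ERK signalling 3 rose, with a list median of 0.00. EGR1, an immediate early factor, had 7.80 and 7.53 CPM at day 4 and 20.01 and 18.7 CPM at day 6 (log2 fold change 1.33 ± 0.24, adjusted p = 2.1e-04). CCND1, the gene of cyclin D1, had 86.1 and 91.4 CPM at day 4 and 193.8 and 206.3 CPM at day 6 (log2 fold change 1.17 ± 0.15, adjusted p = 1.3e-06). FOSL1, an AP-1 factor, was the last (log2 fold change 1.24 ± 0.40, adjusted p = 0.038; lost in 3 of these 4 fits, adjusted p up to 0.34 without day 6 replicate 1, and against Ex2). The feedback inhibitors SPRY2 (0.10), SPRY4 (-0.13) and DUSP6 (log2 fold change 0.54 ± 0.15, adjusted p = 0.016) were not called. Of 16 Notch and Hedgehog genes, HEY2 (log2 fold change 1.06 ± 0.18, adjusted p = 9.8e-05) and HES4 (log2 fold change 2.25 ± 0.73, adjusted p = 0.039) rose. HEY2 was under the fold threshold without day 4 replicate 2 or day 6 replicate 2 (0.95 without day 6 replicate 2) and just under it against Ex2. HES4 was lost in 3 of these 4 fits (adjusted p up to 0.33 without day 6 replicate 2).

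Receptors and ligands of the ERBB, KIT, Eph and axon guidance families had 9 rises and 1 fall among 26 genes, with a median of 0.54. ERBB4 is described above, and its ligand NRG1 fell from 14.9 and 12.4 CPM at day 4 to 5.63 and 6.65 CPM at day 6 (log2 fold change -1.15 ± 0.23, adjusted p = 0.0010). ERBB2 (-0.12), ERBB3 (-0.24) and EGFR (0.48) were not called. NRP2, a neuropilin co-receptor for semaphorins and VEGF, had 23.9 and 21.5 CPM at day 4 and 82.9 and 70.3 CPM at day 6 (log2 fold change 1.75 ± 0.17, adjusted p = 5.6e-09). PLXNA2, a plexin that signals with it, had 1.21 and 1.25 CPM at day 4 and 7.71 and 10.7 CPM at day 6 (log2 fold change 2.87 ± 0.35, adjusted p = 9.7e-07). Both libraries of day 6 were above both of day 4 in each. KITLG, the ligand of KIT, had 8.67 and 7.70 CPM at day 4 and 23.8 and 22.8 CPM at day 6 (log2 fold change 1.503 ± 0.22, adjusted p = 1.4e-05), and no call against Ex2 (0.88). KIT itself was at 23.4 and 23.7 CPM at day 4 and 26.9 and 23.4 CPM at day 6. EFNA5, an ephrin, had 2.43 and 2.69 CPM at day 4 and 11.0 and 8.66 CPM at day 6 (log2 fold change 1.93 ± 0.35, adjusted p = 2.5e-04). EPHA4, SLIT2, UNC5D and NRP1 were called as well, with log2 fold changes of 1.35, 2.37, 1.31 and 2.28. They lost the call when single libraries were left out (EPHA4 and NRP1 in 4 of 4, adjusted p up to 0.13 and 0.24, and SLIT2 and UNC5D without day 4 replicate 1, 0.063 and 0.065).

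Of 27 matrix and integrin genes 8 rose, none fell and 24 were positive, with a median of 0.82 (0.78 without COL3A1, which had 0 counts at day 4). The median over all genes tested was 0.03. FN1, the gene of fibronectin, had 215.8 and 220.4 CPM at day 4 and 469.7 and 463.8 CPM at day 6 (log2 fold change 1.10 ± 0.20, adjusted p = 2.3e-04), and just missed the fold threshold against Ex2. COL18A1, a basement membrane collagen, had 29.3 and 32.8 CPM at day 4 and 82.3 and 107.6 CPM at day 6 (log2 fold change 1.61 ± 0.18, adjusted p = 1.7e-07). COL5A2, a fibrillar collagen chain, had 2.08 and 1.97 CPM at day 4 and 16.1 and 15.1 CPM at day 6 (log2 fold change 2.93 ± 0.34, adjusted p = 3.4e-07). In each of these genes the days were well apart. TNC, the gene of tenascin, had 1.39 and 1.43 CPM at day 4 and 10.2 and 9.27 CPM at day 6 (log2 fold change 2.76 ± 0.39, adjusted p = 8.7e-06). HAPLN1, a link protein of hyaluronan matrix, had 12.1 and 10.8 CPM at day 4 and 25.6 and 27.8 CPM at day 6 (log2 fold change 1.22 ± 0.23, adjusted p = 4.2e-04). COL4A2, given above, COL11A1 and ITGB8 completed the 8. The last 2 had day 6 levels of 3.96 and 4.63 CPM and 5.42 and 3.63 CPM and calls lost in 3 of these 4 fits each (adjusted p up to 0.085 without day 6 replicate 2 and 0.10 without day 6 replicate 1), and that of ITGB8 was also lost against Ex2 (log2 fold change 0.42). COL4A1 had 24.3 and 27.4 CPM at day 4 and 51.1 and 46.3 CPM at day 6 (log2 fold change 0.91 ± 0.15, adjusted p = 6.2e-05), just under the fold threshold. The laminins LAMB1 (-0.03), LAMC1 (0.05) and LAMA5 (-0.02) and the integrins ITGA6 (-0.29) and ITGB1 (0.26) were not called. Of 19 cadherins and genes of epithelial to mesenchymal transition CDH2, VIM and FN1 rose. CDH1, the gene of E-cadherin, was at 368.3 and 403.5 CPM at day 4 and 407.8 and 309.7 CPM at day 6 (log2 fold change -0.11 ± 0.13, adjusted p = 0.66). The epithelial adhesion gene EPCAM was at 459.1 and 440.4 CPM at day 4 and 496.8 and 492.3 CPM at day 6. SNAI1, SNAI2, TWIST1 and ZEB2, factors that drive this transition, were not called. Of 20 YAP/TEAD target genes 4 rose. AMOTL1, which binds YAP, had 10.4 and 12.2 CPM at day 4 and 27.7 and 28.8 CPM at day 6 (log2 fold change 1.32 ± 0.20, adjusted p = 2.9e-05). The others were AXL (1.31), ANKRD1 (1.12) and ARHGEF17 (1.36). The last 3 were lost when single libraries were left out (adjusted p up to 0.061, 0.20 and 0.36). The widely used targets CYR61 (CCN1), at 150.6 and 149.2 CPM at day 4 and 172.8 and 135.8 CPM at day 6, and CTGF (CCN2), at 89.8 and 91.2 CPM at day 4 and 128.4 and 116.7 CPM at day 6, were not called.

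In the p53 target list 2 of 15 rose and 14 were positive, with a median of 0.49 (0.03 over all genes tested). GDF15, a stress-induced secreted factor, had 109.4 and 116.1 CPM at day 4 and 367.0 and 394.3 CPM at day 6 (log2 fold change 1.76 ± 0.14, adjusted p = 8.9e-11). CDKN1A, the cyclin-dependent kinase inhibitor p21, had 25.1 and 31.0 CPM at day 4 and 80.0 and 89.5 CPM at day 6 (log2 fold change 1.59 ± 0.18, adjusted p = 2.3e-07). It was not called against the day 4 libraries of Ex2 (log2 fold change 0.65). MDM2, the ligase that degrades p53, had 409.4 and 410.8 CPM at day 4 and 533.5 and 539.0 CPM at day 6 (log2 fold change 0.39 ± 0.10, adjusted p = 0.0070). The apoptosis gene BBC3 had 349.1 and 382.5 CPM at day 4 and 547.6 and 587.0 CPM at day 6 (log2 fold change 0.63 ± 0.18, adjusted p = 0.016). Both were higher by less than 2-fold. The ATF4 stress list had 1 rise among 15, DDIT3, at 23.2 and 21.1 CPM at day 4 and 45.0 and 49.97 CPM at day 6 (log2 fold change 1.10 ± 0.17, adjusted p = 4.2e-05), and no call with the day 4 libraries of Ex2 (0.73) or of both experiments (0.91). Of 21 hypoxia and glycolysis genes 2 rose, and 8 were called in 1 or the other direction with the day 4 libraries of Ex2. The peptide hormone gene ADM had 17.3 and 19.5 CPM at day 4 and 47.3 and 44.7 CPM at day 6 (log2 fold change 1.32 ± 0.19, adjusted p = 1.4e-05), and no call against Ex2 (0.78). The enolase ENO2 had 44.7 and 53.03 CPM at day 4 and 106.3 and 91.9 CPM at day 6 (log2 fold change 1.02 ± 0.16, adjusted p = 2.9e-05), and its log2 fold change was under 1 without day 4 replicate 1 or day 6 replicate 1 (0.90 without day 4 replicate 1). SLC2A3, a glucose transporter, had 856.6 and 891.7 CPM at day 4 and 1382 and 1392 CPM at day 6 (log2 fold change 0.67 ± 0.09, adjusted p = 4.5e-06).

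Of 18 S phase genes 17 were lower, with a median of -0.33 (0.03 over all genes tested), but CCNE2 alone was called. This cyclin E gene was at 3.81 and 4.48 CPM at day 4 and 2.08 and 1.41 CPM at day 6 (log2 fold change -1.24 ± 0.34, adjusted p = 0.016; lost without day 4 replicate 2 and day 6 replicate 2, adjusted p up to 0.23). The replication genes FEN1 (log2 fold change -0.84 ± 0.21, adjusted p = 0.0075) and RRM2 (log2 fold change -0.60 ± 0.10, adjusted p = 1.7e-04) were lower by less than 2-fold. None of 18 G2/M genes was called (median 0.04), with the proliferation marker MKI67 at 190.8 and 169.0 CPM at day 4 and 194.0 and 174.5 CPM at day 6. No call was made among 15 cytochrome c oxidase subunits, 16 genes of lipid and sterol synthesis and 18 imprinted genes, with medians of -0.14, -0.10 and 0.31. With the day 4 libraries of Ex2, 3 lipid and sterol genes and 2 imprinted genes were called. Of 9 cell cycle inhibitors and D cyclins, CDKN1A and CCND1 rose. CCND3, another D cyclin, had 58.1 and 62.4 CPM at day 4 and 31.3 and 34.9 CPM at day 6 (log2 fold change -0.86 ± 0.12, adjusted p = 1.0e-05). Over all 33 lists 75 of 457 genes tested were called, 65 higher and 10 lower, against 3.89%, 3.08% and 0.81% of all genes tested. The lists were drawn up with earlier results of these data known and their counts are descriptions.

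**Figure D3:**
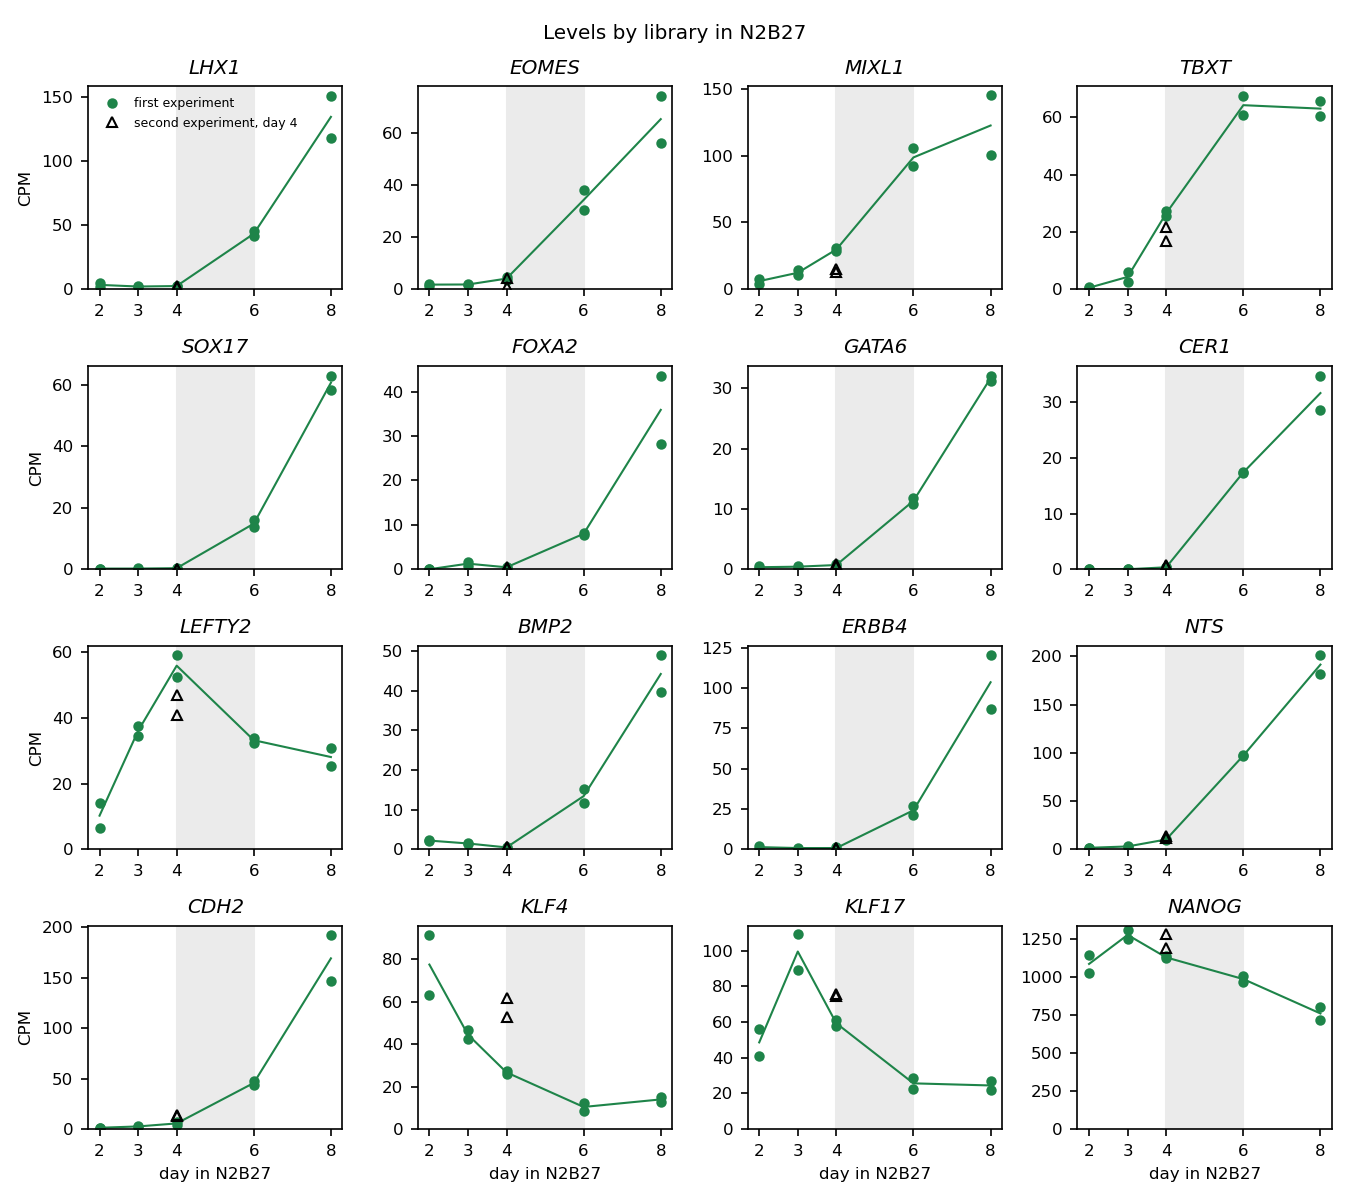
Levels of 16 genes in CPM (y axis, from 0) against days in N2B27 (x axis): filled points are the 2 libraries of each day of the first experiment, lines join the means, open triangles are the day 4 libraries of the second experiment, and the interval from day 4 to day 6 is shaded. LHX1, EOMES, SOX17, FOXA2, GATA6, CER1, ERBB4, NTS and CDH2 are low to day 4 and climb at days 6 and 8, BMP2 is low from day 2 to day 4 and climbs after it, TBXT is level between days 6 and 8, and LEFTY2 is higher at day 4 than at days 3, 6 and 8.

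The levels on either side of the step placed it in the longer course. Against day 3, the day 4 libraries differed in 181 genes (1.09%), 133 of them higher (0.798%), and day 8 differed from day 6 in 239 (1.43%), 195 of them higher (1.17%). These comparisons share libraries with the step, so their values are given side by side and not correlated. TBXT had 2.46 and 6.21 CPM at day 3, 27.4 and 25.6 CPM at day 4, 67.5 and 60.9 CPM at day 6 and 65.7 and 60.3 CPM at day 8, so that days 6 and 8 were at 1 level. LHX1 continued to 150.9 and 117.6 CPM and SOX17 to 58.4 and 63.0 CPM at day 8. CDKN1A, at 60.4 and 59.8 CPM, and HEY2, at 29.5 and 35.6 CPM, were no higher at day 8 than at day 6. LEFTY2 had 34.5 and 37.6 CPM at day 3 and 30.8 and 25.3 CPM at day 8, both below day 4, while naive cells had 121.4 and 120.9 CPM. KLF4 was lower from day to day before the step. It went from 108.9 and 110.4 CPM in naive cells on Geltrex through 91.6 and 63.4 CPM at day 2 and 46.5 and 42.5 CPM at day 3, and stood at 12.8 and 15.2 CPM at day 8. KLF17 did not move one way, with 107.5 and 125.9 CPM in naive cells, 56.2 and 41.1 CPM at day 2 and 109.7 and 89.5 CPM at day 3. IRX3 and BMP2 were high in naive cells (78.3 and 95.8 CPM and 43.1 and 39.5 CPM), low at days 2 to 4, and higher again at day 6. MIXL1 was at 19.98 and 20.2 CPM in naive cells and at 8.00 and 4.27 CPM at day 2.

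A pair of groups that shares no library with the step, day 8 of Ex1 against day 4 of Ex2, also spans the later part of the course, although in it the day and the experiment cannot be told apart. There 9.37% of all genes were called higher and 3.59% lower. Of the 513 genes that rose in the step 393 (76.6%) were called higher, which is 25.1% of the 1563 called higher in that pair. Of the 135 that fell, 76 (56.3%) were called lower, 12.7% of 599. The sign was the same in 503 (98.1%) and 127 (94.1%) of them, against 52.2% of all genes positive and 47.6% negative in that pair. The gene AC107982.1, named here after its values were seen, was called in opposite directions.

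The day 4 libraries of the 2 experiments were not alike: 168 genes (1.01%) differed, 65 of them higher (0.39%) and 103 lower (0.618%) in Ex2. With the Ex2 libraries as day 4 the step had 1793 calls, 1268 higher and 525 lower, and with the day 4 libraries of both experiments 1290, 1014 higher and 276 lower. Several named genes that rose were higher at day 4 in Ex2, among them VIM at 22.4 and 20.2 CPM, CDKN1A at 49.0 and 59.0 CPM and ADM at 26.3 and 27.1 CPM. In all, 16 of the 94 called genes followed, each named above, were not called against Ex2. Of the genes with a mean above the floor at day 4 that kept their call, P3H2 (3.42), DTNA (1.46), IRX3 (1.00), ID2 (1.02), SLIT2 (1.35) and PLXNA2 (2.19) had a fold change smaller by over 1.5 times against Ex2 (log2 values in brackets), as did CDH2. It was larger by over 1.5 times for KLF4 (-2.45), MIXL1 (2.79), APLNR (3.64), EGR1 (2.41) and ENO2 (1.91), among others. FGF ligands and receptors went from 1 call to 3 and BMP ligands, receptors and antagonists from 3 to 5. KLF4 was higher in Ex2, at 52.6 and 61.8 CPM. LHX1 was below 3 CPM, and SOX17, CER1, ERBB4 and BMP2 were near the floor, at day 4 in both experiments. What differed between the experiments was not tested.

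The same interval in E8 and mTeSR, commercial media that contain FGF2 and a ligand of the TGFβ family and are used for primed cells, rests on libraries the N2B27 step did not use. In E8 419 genes (2.51%) were called, 329 higher and 90 lower. In mTeSR there were 486 (2.91%), 382 higher and 104 lower. Of the 513 genes that rose in N2B27, 127 also rose in E8 (24.8% of the N2B27 and 38.6% of the E8 list) and 144 in mTeSR (28.1% and 37.7%), against 1.97% and 2.29% of all genes called higher there. Of the 135 that fell, 19 fell in E8 (14.1% and 21.1%) and 29 in mTeSR (21.5% and 27.9%), against 0.54% and 0.624% of all genes. No gene was called in opposite directions, and 465 of the 513 were positive in E8 and 478 in mTeSR (90.6% and 93.2%, against 52.0% and 51.9% of all genes tested). In all 3 media 75 genes rose and 10 fell. NTS was among them, with 3.55 and 2.76 CPM at day 4 and 27.8 and 28.9 CPM at day 6 in E8. In mTeSR it had 1.41 and 1.15 CPM at day 4 and 18.4 and 23.9 CPM at day 6. CDH2, GATA6, EOMES, MIXL1, TBXT, CYP26A1 and P3H2 rose in each medium too. CDH2 reached 51.0 and 57.8 CPM at day 6 in E8 and 46.0 and 50.4 CPM at day 6 in mTeSR. MIXL1 reached 14.7 and 13.0 CPM at day 6 in E8 against 91.9 and 105.4 CPM in N2B27. Of the genes called in N2B27, 317 rises and 97 falls were called in neither other medium, for which the difference between media was not tested as a group.

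**Figure D4:**
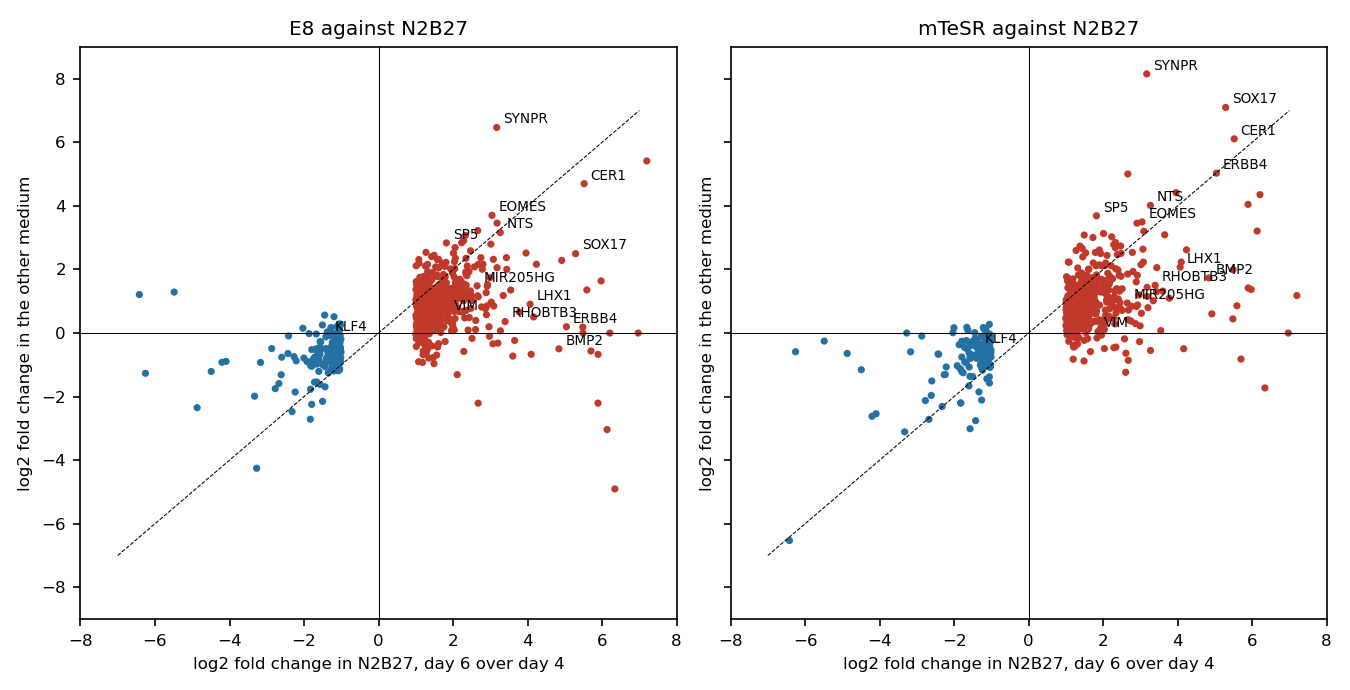
Each point is 1 of the 648 genes called in N2B27, placed by its log2 fold change from day 4 to day 6. The x axis is N2B27 and the y axis E8 (left) or mTeSR (right). GATA6-AS1, at 8.70 in N2B27, lies beyond the range drawn. Red points rose and blue points fell in N2B27, and the dashed line marks equal changes. Most red points lie above 0 on the y axis (465 of 513 in E8, 478 in mTeSR) and below the dashed line, as a choice of genes by the x value alone would also give, and BMP2 and RHOBTB3 lie near 0 in E8.

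The difference of the steps was tested gene by gene as an interaction. It passed for 30 genes (0.18%) against E8, 16 with a more positive change in N2B27 (0.096%) and 14 with a more negative one (0.084%). Against mTeSR it passed for 28 (0.168%), 7 (0.042%) and 21 (0.126%), and for 19 in all with library totals as the scaling. Both counts fell with any 1 N2B27 library left out, and more so against mTeSR. RHOBTB3 had 3.34 and 3.75 CPM at day 4 and 3.62 and 5.46 CPM at day 6 in E8, where the N2B27 libraries went from near 3 to over 30 CPM, a difference of 3.04 ± 0.46, adjusted p = 5.9e-04. BMP2, at 0 and 0.683 CPM at day 6 in E8, differed by 5.34 ± 1.12, adjusted p = 0.022, a fitted value on few counts that missed the threshold without either day 4 library (adjusted p up to 0.088). BMP4 was the reverse, since in E8 it went from 56.8 and 65.3 CPM at day 4 to 216.1 and 212.8 CPM at day 6, a difference of -1.27 ± 0.19, adjusted p = 5.9e-04. ERBB4 had 0.627 and 0.394 CPM at day 4 and 0.725 and 0.455 CPM at day 6 in E8, and was not called there. In mTeSR it rose from 0 and 0.230 CPM at day 4 to 3.76 and 5.60 CPM at day 6 (adjusted p = 1.4e-04). LHX1 had 1.46 and 2.37 CPM at day 4 and 3.86 and 3.42 CPM at day 6 in E8, without a call, and rose from 0.706 and 4.15 CPM at day 4 to 9.51 and 11.2 CPM at day 6 in mTeSR (adjusted p = 0.0038). The differences from N2B27 missed the threshold for both genes, against E8 (adjusted p = 0.088 for ERBB4 and 0.060 for LHX1) and against mTeSR (0.99 and 0.35). SFRP1, whose rise in N2B27 fell under the fold limit without day 4 replicate 1 (log2 fold change 0.99), had 7.31 and 5.92 CPM at day 4 and 4.11 and 2.96 CPM at day 6 in E8 (1.98 ± 0.34, adjusted p = 0.0033). Among genes that averaged 20 CPM or more in a group, the coagulation inhibitor TFPI (1.55 ± 0.28, adjusted p = 0.0051), the sorting nexin SNX16 (1.36 ± 0.29, adjusted p = 0.023) and CCDC144A (1.31 ± 0.30, adjusted p = 0.044) were among those with the more positive change in N2B27. The VEGF receptor FLT1 (-1.68 ± 0.29, adjusted p = 0.0033), STOX2 (-1.60 ± 0.26, adjusted p = 0.0016) and FAM118B (-1.28 ± 0.29, adjusted p = 0.037) were among those with the more negative one. KLF4 was not called in E8 or mTeSR. It had 45.1 and 43.6 CPM at day 4 and 43.5 and 41.0 CPM at day 6 in E8, and 47.5 and 33.4 CPM at day 4 and 29.2 and 29.7 CPM at day 6 in mTeSR. The difference passed against E8 (-1.28 ± 0.27, adjusted p = 0.023) and not against mTeSR (-0.90 ± 0.28, adjusted p = 0.26). The calls of RHOBTB3, SFRP1, BMP4, TFPI, FLT1, STOX2 and both Lefty genes against E8 held under all alternatives run. Those of SNX16, MIR205HG and FAM118B were lost without each single N2B27 library, with adjusted p-values of up to 0.14, 0.30 and 0.20. Those of CCDC144A and KLF4 were lost without 3 of the 4, with adjusted p-values of up to 0.34 and 0.16.

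The Lefty genes had large negative differences against both media. LEFTY2 went from 1.25 and 2.37 CPM at day 4 to 14.3 and 15.02 CPM at day 6 in E8, and from 2.59 and 5.53 CPM at day 4 to 40.9 and 44.2 CPM at day 6 in mTeSR. In N2B27 it started at 52.5 and 59.3 CPM and was lower at day 6. The log2 differences were -3.74 ± 0.51 against E8 (adjusted p = 2.0e-04) and -4.13 ± 0.42 against mTeSR (adjusted p = 6.1e-07). LEFTY1 went from 27.2 and 26.0 CPM at day 4 to 94.4 and 101.8 CPM at day 6 in E8 and from 40.9 and 43.3 CPM at day 4 to 110.6 and 121.8 CPM at day 6 in mTeSR. Its differences were -2.02 ± 0.26 (adjusted p = 1.4e-04) and -1.60 ± 0.25 (adjusted p = 0.0028). By day 6 LEFTY1 was close to the 123.8 and 113.0 CPM of N2B27 in both other media. NODAL was at 89.0 and 104.7 CPM at day 4 and 151.4 and 157.5 CPM at day 6 in E8, and at 94.8 and 117.7 CPM at day 4 and 184.9 and 173.3 CPM at day 6 in mTeSR. The difference was -1.03 against mTeSR (adjusted p = 0.046) and -0.95 against E8 (adjusted p = 0.066), and the first was lost without each single N2B27 library (adjusted p up to 0.24). In these 3 genes the N2B27 libraries at day 4 were above those of both other media.

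Of the 7 genes with a more positive change in N2B27 than in mTeSR, VIM and MIR205HG averaged 20 CPM or more in a group. VIM was level in mTeSR at 55.3 and 53.7 CPM at day 4 and 56.2 and 56.5 CPM at day 6 (1.81 ± 0.32, adjusted p = 0.011). MIR205HG differed from both media (1.70 ± 0.27, adjusted p = 0.0028 against mTeSR and 1.16 ± 0.26, adjusted p = 0.039 against E8). PLXNA2, from the guidance list and at a lower level, had 6.12 and 4.38 CPM at day 4 and 6.19 and 6.68 CPM at day 6 in mTeSR (2.58 ± 0.48, adjusted p = 0.015), a difference lost in 3 of the 4 fits with 1 N2B27 library left out (adjusted p up to 0.14). SP5 rose in both media, but from 6.82 and 8.98 CPM at day 4 to 96.4 and 108.2 CPM at day 6 in mTeSR, a larger change than in N2B27 (-1.87 ± 0.36, adjusted p = 0.024). The kinase PDK1 and the lactate transporter SLC16A3, both known targets of the hypoxia response, changed more in mTeSR than in N2B27. PDK1 went from 12.2 and 13.8 CPM at day 4 to 47.6 and 51.9 CPM at day 6 in mTeSR and was at 47.1 and 48.7 CPM at day 4 and 63.6 and 50.4 CPM at day 6 in N2B27 (-1.68 ± 0.28, adjusted p = 0.0035). SLC16A3 went from 9.18 and 12.9 CPM at day 4 to 60.6 and 70.1 CPM at day 6 in mTeSR and from 27.7 and 33.0 CPM at day 4 to 45.0 and 56.8 CPM at day 6 in N2B27 (-1.81 ± 0.34, adjusted p = 0.018). STOX2 again had the more negative change in N2B27 (-1.54 ± 0.25, adjusted p = 0.0028). Leaving out single N2B27 libraries removed the calls of VIM, SLC16A3 and SP5 in 3 of 4 cases and that of MIR205HG without day 4 replicate 1. The adjusted p-values rose to 0.10, 0.14, 0.14 and 0.068. The calls of PDK1, STOX2 and both Lefty genes held.

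**Figure D5:**
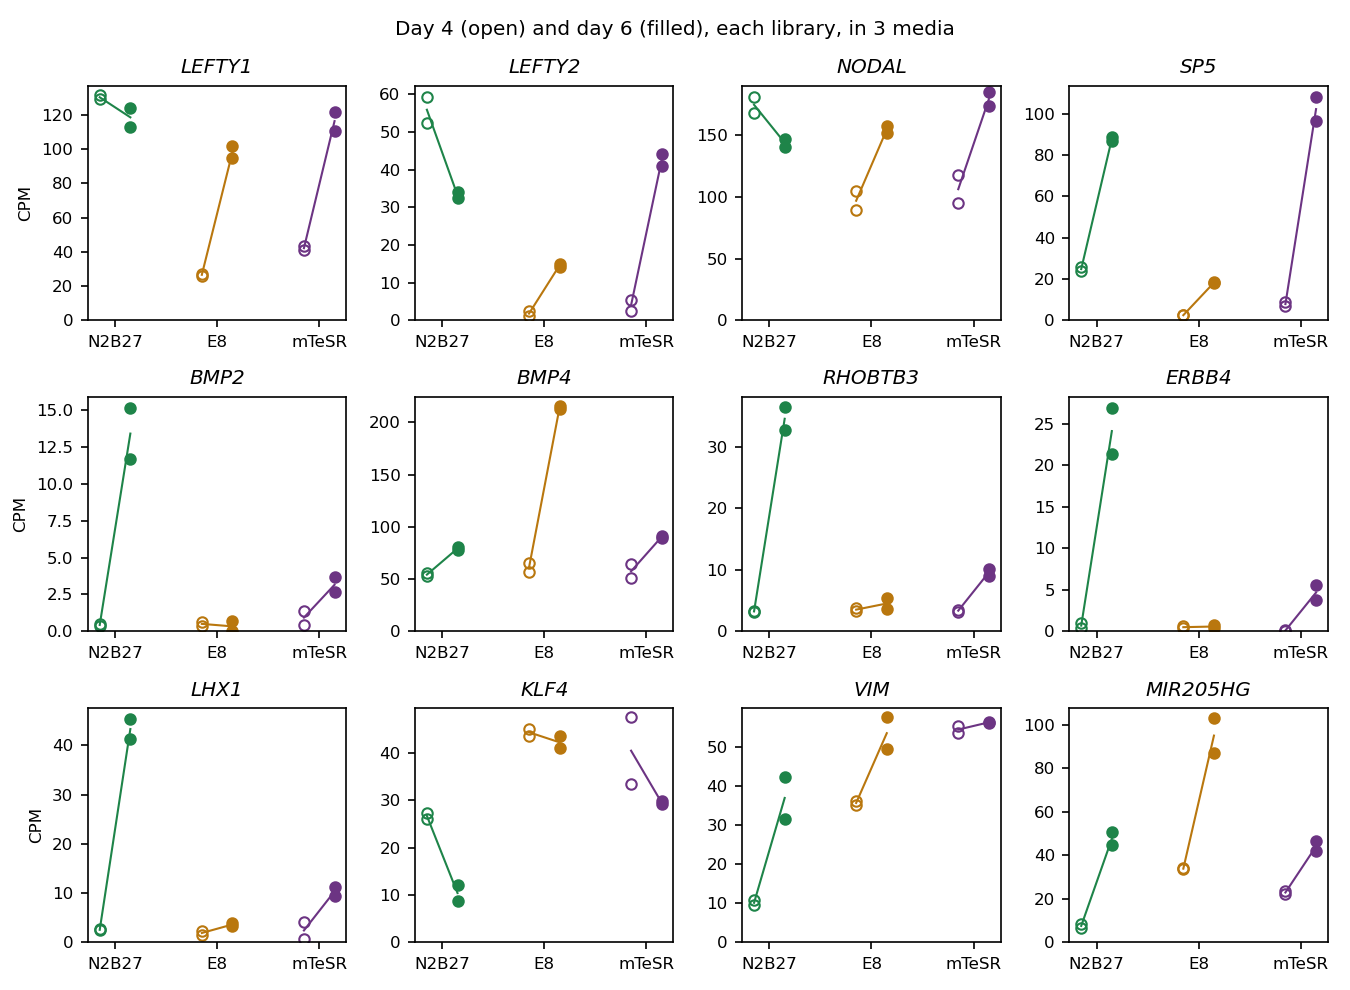
Levels of 12 genes in CPM (y axis, from 0) in N2B27, E8 and mTeSR, with the 2 day 4 libraries as open and the 2 day 6 libraries as filled circles and lines that join the means. LEFTY1, LEFTY2 and NODAL start highest in N2B27 and climb in E8 and mTeSR, BMP2, RHOBTB3, ERBB4 and LHX1 have their highest day 6 levels in N2B27, BMP4 has its highest in E8, and KLF4 has its lowest in N2B27.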

How the data were processed

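Total RNA from 38 samples of 19 groups, with 2 libraries per group, was made into QuantSeq 3′ libraries. The authors processed the reads with the nf-core/rnaseq pipeline on hg38, and the labels name FastQC 0.11.9, STAR 2.7.10a and Salmon 1.9.0. The table they deposited holds raw counts for 57133 genes, and the annotation release is not given in the sources used here. All 38 columns were mapped to samples by name, and groups were taken from the labels. The study's own comparisons were made with DESeq2.

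From these counts, genes passing the edgeR expression filter (16674, with 99.6% of counts) were scaled by TMM and fitted with edgeR 4.0.16 (R 4.3.3) by quasi-likelihood over all 19 groups. A gene was called at a Benjamini-Hochberg adjusted p under 0.05 and an absolute log2 fold change above 1. Differences between media were tested as interactions in the same fit. Levels are TMM-scaled CPM, and intervals and floors cover counting error only, since these reads carry no molecular identifiers in the files. The called genes named first were up to 15 higher and 12 lower by size of change with at least 20 CPM on the higher side, up to 6 in either direction, with at least 20 CPM in 1 of the 4 groups, were named for each difference between media, and other genes came from 33 lists. Members and lists were chosen with earlier results of these data known. A few genes that these rules name are not reported here, though they stay in the counts. Coordinates are those of GENCODE 44 on GRCh38. Alternatives were RLE and library-total scaling, no filter or a filter of more than 10 counts in 2 libraries, DESeq2 1.42.0, the compared libraries alone, a replicate block, each N2B27 library left out, and the day 4 libraries of the second experiment, alone or with those of the first. The alternatives with other day 4 libraries were run for the N2B27 step only, not for the differences between media.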

Additional observations from a re-analysis of the deposited data

Results flagged for a closer look

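The change from day 4 to day 6 differed between N2B27 and the other media by the test of the difference itself (edgeR quasi-likelihood interaction, Benjamini-Hochberg adjusted) in 30 genes for E8 and 28 for mTeSR. Against E8 the log2 differences, N2B27 minus E8, were 3.04 for RHOBTB3, 1.55 for TFPI, 1.36 for SNX16, 1.31 for CCDC144A and 1.16 for MIR205HG. On the other side they were -1.28 for FAM118B, -1.28 for KLF4, -1.60 for STOX2, -1.68 for FLT1, -2.02 for LEFTY1 and -3.74 for LEFTY2. Against mTeSR they were 1.81 for VIM, 1.70 for MIR205HG, -1.54 for STOX2, -1.60 for LEFTY1, -1.68 for PDK1, -1.81 for SLC16A3, -1.87 for SP5 and -4.13 for LEFTY2. STOX2, LEFTY1 and LEFTY2 were thus negative against both media, which share the same N2B27 libraries, and held with each single N2B27 library left out. MIR205HG was positive against both, but its call was lost without each single N2B27 library against E8 and without day 4 replicate 1 against mTeSR. Against E8, SNX16 and FAM118B also lost the call without each single library, and CCDC144A and KLF4 without 3 of the 4. Against mTeSR, VIM, SLC16A3 and SP5 lost it without 3 of the 4. The other calls listed held in these fits. The differences were not run with the day 4 libraries of Ex2, against which VIM rose by 0.79 on the log2 scale. What sets these genes apart between the media was not tested.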

How the results depend on the processing

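The 648 calls of the step became 415 with DESeq2, 1793 with the day 4 libraries of the second experiment, 1290 with those of both experiments, and 354 to 605 with 1 library left out, while the other alternatives stayed within 1.5 times. The E8 step went from 419 to 265 calls with DESeq2. The difference from E8 went from 30 to 100 without a filter, 119 in the compared libraries alone and 16 to 24 with 1 library left out, and that from mTeSR from 28 to 84, 60 and 5 to 20, and to 19 with library totals. The cause was not tested. CXCR4 reversed to -0.013 on the log2 scale (adjusted p = 0.974) with the day 4 libraries of the second experiment. Of 94 genes called and followed in the step, 53 were called in all 13 alternatives and 93 kept their sign. A lone library left in a group was assumed to vary like the other groups.

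Replicate numbers are shared between the days, but nothing in the labels ties them, and the deviations of same-numbered libraries correlated with r = -0.0044 across 16674 genes. A fit with a replicate block gave 633 calls for the step.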
